A study of Homo sapiens with 24 samples.

Results

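The genes described here are 10 components and targets of TGF-beta and BMP signalling, measured for level and half-lifetime in HepG2 cells: TGFB1, TGFBR1, BAMBI, SMAD6, SMAD7, SKI, SKIL, ID1, ID2 and ID3. They were taken from a list of names by matching the Ensembl identifiers of the count tables to symbols, and all 10 were found among 58676 gene rows and passed the filter on low counts. HepG2 is an established human liver cancer cell line. The cells were transfected with an AllStars negative control (siControl) or with pre-designed siRNAs that target 1 of 3 related RNA-binding proteins: IGF2BP1 (siIGF2BP1), IGF2BP2 (siIGF2BP2) or IGF2BP3 (siIGF2BP3). Actinomycin D, which blocks transcription, was added 48 h after re-seeding at 5 µg/ml, 0, 3 or 6 h before collection, and polyadenylated RNA was sequenced in 24 libraries, 2 for each of 12 groups. Every group, siControl included, therefore carried a transfected siRNA, and the 0 h groups had no time with the drug. The labels do not say that replicates came from separate cultures, so p-values measure only the spread between these libraries, which may be technical. METTL1 knockdown is not analysed here. In bulk RNA, fewer cells with a transcript and less of it per cell cannot be told apart.

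TGF-beta and BMP ligands bind paired serine/threonine kinase receptors, which phosphorylate receptor SMAD proteins. These enter the nucleus with SMAD4 and switch on target genes, among them the ID genes, whose proteins block the DNA binding of basic helix-loop-helix factors. The pathway also induces its own brakes: SMAD6 and SMAD7 act on receptors and SMADs, BAMBI is a decoy receptor without a kinase, and SKI and SKIL are corepressors of SMAD complexes. In liver, TGF-beta restrains hepatocyte growth, and BMP signalling controls HAMP, which encodes the iron hormone hepcidin.

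The libraries held 31843248 to 74252042 gene reads and 50889 to 119088 reads of ERCC spike-in RNA. At 0 h the level of IGF2BP1 in siIGF2BP1 cells was 21.1% of that in siControl, that of IGF2BP2 in siIGF2BP2 cells was 26.2% and that of IGF2BP3 in siIGF2BP3 cells was 35.5% (edgeR adjusted p of 2.55e-36, 1.80e-30 and 7.83e-25). All 6 hepatocyte markers were detected in every library, from 38.6 to 77.6 CPM (reads scaled to a common library total) for TTR up to 10740 to 17360 for ALB. Of 7 markers of other liver cells, ACTA2 was at 29.1 to 42.6 CPM. The other 6 did not exceed 1.38 CPM in any library.

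Because half-lifetime is the main measurement, the 3′ untranslated region (UTR) of each canonical transcript in GENCODE release 44 was searched in the mRNA sense. The motifs were the pentamer ATTTA, the core of AU-rich elements that many short-lived mRNAs carry, and the longer form TTATTTATT. Of 11320 UTRs of tested genes, 73.0% held the pentamer, with a median of 1.7 per kb, and 9.4% held the longer form. None of the 10 UTRs held the longer form, and all 10 held the pentamer. For 6 of them, chosen to span the shortest and longest half-lifetimes, 1 stretch of 30 bases with the pentamer in capitals is shown from the hg38 genome. All 6 lie within a 3′ UTR.

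BAMBI, chr10:28682713-28682742, plus strand: ttctacatcttgATTTAttgtaaagATTTA
ID2, chr2:8683876-8683905, plus strand: tgatattcgttATTTAtgaaaaagactttt
SMAD7, chr18:48920173-48920202, minus strand: tctcattggaaATTTAgcattgtagtgctt
SKIL, chr3:170393952-170393981, plus strand: ttttgtacttccccaaatgtaATTTATTTA
TGFBR1, chr9:99149684-99149713, plus strand: taaagaaagtgATTTActcctggttagtac
TGFB1, chr19:41330953-41330982, minus strand: atgggggctgtATTTAaggacacccgtgcc

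BAMBI held 5 pentamers in a UTR of 531 bases, the highest density of the 10 at 9.42 per kb, and SKIL held 23 in 4418 bases (5.21 per kb). SMAD7 and ID3 had the lowest densities, at 1.97 and 1.94 per kb, with 3 and 1 copies. TGFB1 had 2.74 per kb and TGFBR1 2.25. The density thus did not follow the order of the half-lifetimes given next, in which TGFB1 and TGFBR1 were the longest and ID3 and SMAD7 were among the shortest. This is a description of letters in 10 UTRs, and which elements act in these cells was not tested.

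Before the drug, ID1 was the most abundant of the 10 transcripts per length. In siControl at 0 h it reached 149 and 150.3 CPM per kb of exon in the 2 libraries, followed by ID2 at 48.9 and 49.1 and TGFB1 at 28.2 and 30.2. SKI, at 19.8 and 21.4, overlapped with ID3, at 19.1 and 21.1, and this was the only neighbouring pair in the order whose libraries overlapped. Below them came SMAD7 (6.10 and 6.36), SKIL (5.59 and 5.69), BAMBI (4.74 and 4.85), TGFBR1 (3.70 and 3.75) and SMAD6 (1.10 and 1.19). The ID genes were thus measured well above the inhibitory SMADs, the decoy receptor and the type I receptor. TGFB1 lay above ID3, and SKI overlapped with ID3.

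The next question was how fast each transcript was lost once transcription stopped. Levels over time are given as ERCC-scaled CPM, in which each library's gene reads are divided by its spike-in reads, so that a loss of total mRNA is not scaled away. Half-lifetime is ln2 divided by the decay rate, the mean of the rates over 0 to 3 h and 0 to 6 h. Same-numbered estimates join the 0, 3 and 6 h libraries that share a replicate number. The labels do not say that such libraries belong together. Other combinations would give other values, so these estimates are only a rough guide to spread. In siControl, 9 of the 10 transcripts had a half-lifetime below the median of 5.88 h over all tested genes that had one, and the median of the 10 was 1.66 h. The slope over 6 h fell for all 10 (edgeR adjusted p from 4.79e-17 for SKI to 0.00502 for TGFB1), where 80.3% of all tested genes fell. The call for TGFB1 was lost without siControl 6 h replicate 2 (edgeR adjusted p = 0.0608). The median log2 change over 6 h was -3.31 in the 10 genes against -0.88 in all genes.

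**Figure D1:**
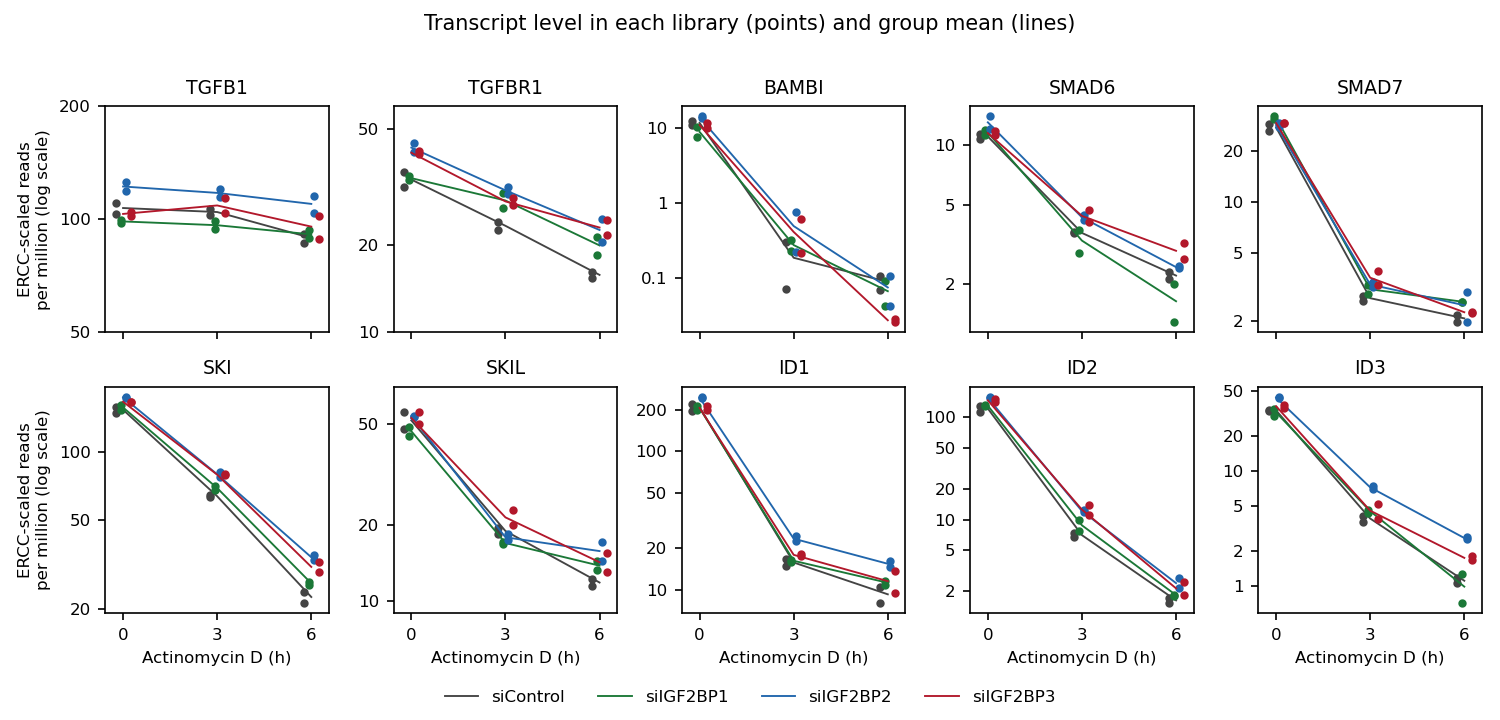
Each panel plots 1 gene. The x axis is hours of actinomycin D, the y axis is the level in ERCC-scaled CPM on a log scale whose range differs between panels, points are single libraries and lines join the means of the 2 libraries. TGFB1 stayed nearly level in siControl (83.2% left at 6 h), TGFBR1 fell slowly, SKI fell along a nearly straight line, and SMAD7 and ID1 fell steeply to 3 h and little after it.

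The ligand was the most stable transcript. TGFB1 (hg38 chr19:41301587-41353922, minus strand), which encodes TGF-beta 1, was at 110.7 and 103.5 ERCC-scaled CPM at 0 h in siControl, 102.8 and 106.2 at 3 h, and 91.6 and 86.7 at 6 h. The 0 h and 3 h libraries overlapped, and both 6 h libraries lay below them. The half-lifetime came to 35.9 h, but the same-numbered libraries alone gave 24.8 and 66.3 h, so that a course of 6 h fixes this value poorly. The sign of its change also depended on the scale: over 6 h TGFB1 fell by 0.26 on the log2 scale with ERCC scaling, and rose by 0.60 with TMM, a scaling that holds the bulk of transcripts level.

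TGFBR1 (chr9:99104038-99154192, plus strand), the type I receptor kinase for TGF-beta, was at 35.5 and 31.5 at 0 h, 23.96 and 22.5 at 3 h and 16.1 and 15.4 at 6 h. The 3 time points did not overlap. Its half-lifetime was 5.59 h in siControl (5.27 and 5.99 h in the same-numbered libraries), and 48.2% of all tested genes with a half-lifetime were shorter. TGFBR1 thus lay near the middle of the transcriptome. With TMM its half-lifetime in siControl was 32.6 h, and neither interval of 3 h was then called as a fall (-0.08 and -0.14, edgeR adjusted p of 0.314 and 0.0821).

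Of the inhibitors, BAMBI (chr10:28677510-28682932, plus strand) was lost fastest of all 10. Its 2 siControl libraries had 581 and 770 reads at 0 h, 3 and 16 at 3 h and 8 and 5 at 6 h. In ERCC-scaled CPM these were 12.2 and 10.9, then 0.0696 and 0.299, then 0.106 and 0.0695. The 3 h and 6 h libraries overlapped, and both rested on few reads. Between 0 and 3 h BAMBI fell by 5.87 on the log2 scale (SE 0.295, edgeR adjusted p = 5.17e-86), and its half-lifetime of 0.632 h (38 min) was shorter than that of all but 0.118% of tested genes.

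SMAD7 (chr18:48919853-48950965, minus strand), which blocks TGF-beta receptors, was at 28.9 and 26.4 at 0 h, 2.62 and 2.80 at 3 h and 2.16 and 1.96 at 6 h. A level of 9.80% was left at 3 h and 7.45% at 6 h. Its half-lifetime was 1.15 h, with 2.23% of tested genes shorter. SMAD6 (chr15:66702236-66782849, plus strand), its relative that acts mainly on BMP signalling, was lost more slowly, from 11.3 and 10.7 to 3.58 and 3.62 and then to 2.29 and 2.098, with a half-lifetime of 2.16 h. The same-numbered estimates were 1.13 and 1.17 h for SMAD7 and 2.13 and 2.19 h for SMAD6, which did not overlap.

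The corepressors resembled SMAD6 in half-lifetime and differed from each other in course. SKI (chr1:2227388-2310213, plus strand) was at 159 and 150.3 at 0 h, 63.1 and 64.2 at 3 h and 23.9 and 21.3 at 6 h, with a half-lifetime of 2.25 h. SKIL (chr3:170357342-170396835, plus strand) was at 55.5 and 47.8, then 18.4 and 19.5, then 11.5 and 12.3, with a half-lifetime of 2.39 h. The same-numbered libraries gave 2.22 and 2.28 h for SKI and 2.20 and 2.64 h for SKIL, which overlap. For SKI the fall from 3 to 6 h (1.49 on the log2 scale, SE 0.092) was no smaller than that from 0 to 3 h (1.28, SE 0.089). SKIL fell by 1.44 (SE 0.11) in the first interval and by 0.68 (SE 0.11) in the next.

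All 3 ID transcripts had half-lifetimes near 1 h. ID2 (chr2:8678845-8684461, plus strand) was at 130.0 and 114 at 0 h, 6.73 and 7.37 at 3 h and 1.54 and 1.71 at 6 h, with a half-lifetime of 0.830 h. ID1 (chr20:31605283-31606515, plus strand) was at 221 and 195 at 0 h, 16.7 and 14.9 at 3 h and 10.6 and 8.10 at 6 h, with a half-lifetime of 1.01 h. ID3 (chr1:23557926-23559501, minus strand) was at 34.3 and 33.2, then 3.62 and 4.10, then 1.17 and 1.06, with a half-lifetime of 1.07 h. In each of them no time point overlapped with another. Of all tested genes with a half-lifetime, 0.504% were shorter than ID2, 1.21% shorter than ID1 and 1.58% shorter than ID3. Although ID1 and ID3 had nearly the same half-lifetime, 4.48% of ID1 and 3.29% of ID3 was left at 6 h.

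For most of the 10, loss was faster in the first 3 h than in the next 3 h. Between 0 and 3 h in siControl, 9 of 10 fell (edgeR adjusted p under 0.05), TGFB1 being the exception at -0.03 (SE 0.086), where 61.3% of all tested genes fell. Between 3 and 6 h, 9 of 10 also fell, BAMBI being the exception at -1.12 (SE 0.55, adjusted p = 0.0625), where 64.9% of all tested genes fell. The fall of TGFB1 from 3 to 6 h was not called without 3 h replicate 2 or 6 h replicate 2 (edgeR adjusted p of 0.0962 and 0.12), and that of BAMBI was called without 3 h replicate 1 (-1.73, adjusted p = 0.00834). The difference between both intervals was tested directly. It was positive, meaning slower loss later, for BAMBI, SMAD6, SMAD7, SKIL, ID1, ID2 and ID3 (7 of 10), where 10.9% of all tested genes were called in that direction. None of the 10 was called in the other direction, as were 1.64% of all genes (216 genes, and 38 to 652 when 1 siControl library was left out), and the 3 with an unadjusted p over 0.05 were TGFB1, TGFBR1 and SKI.

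The difference between intervals was largest in BAMBI, at 4.74 (SE 0.85, edgeR adjusted p = 6.07e-07), which rested on its 3 and 16 reads at 3 h: it was 3.53 without 3 h replicate 1 and 7.65 without 3 h replicate 2. SMAD7 and ID1 followed. SMAD7 fell by 3.35 (SE 0.15) and then by 0.40 (SE 0.17), a difference of 2.95 (SE 0.29, edgeR adjusted p = 2.99e-22). ID1 fell by 3.72 (SE 0.10) and then by 0.76 (SE 0.10), a difference of 2.96 (SE 0.18, edgeR adjusted p = 1.29e-59). ID2 went on falling, by 4.11 (SE 0.11) and then 2.12 (SE 0.14), and ID3 by 3.12 (SE 0.14) and then 1.80 (SE 0.17). Expressed as half-lifetimes within an interval, SMAD7 went from 0.895 to 7.57 h and ID1 from 0.807 to 3.94 h, while ID2 went from 0.729 to 1.42 h. The fall of SMAD7 from 3 to 6 h, called at an adjusted p of 0.0326, was not called without siControl 3 h replicate 1, 3 h replicate 2 or 6 h replicate 2 (adjusted p 0.0583, 0.164 and 0.171). The difference for SMAD6 of 0.90 (SE 0.32, edgeR adjusted p = 0.0377) was lost without 0 h replicate 1, either 3 h library or 6 h replicate 1 (adjusted p 0.06 to 0.239), and that for SKIL was lost without 3 h replicate 1 (adjusted p = 0.0662).

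**Figure D2:**
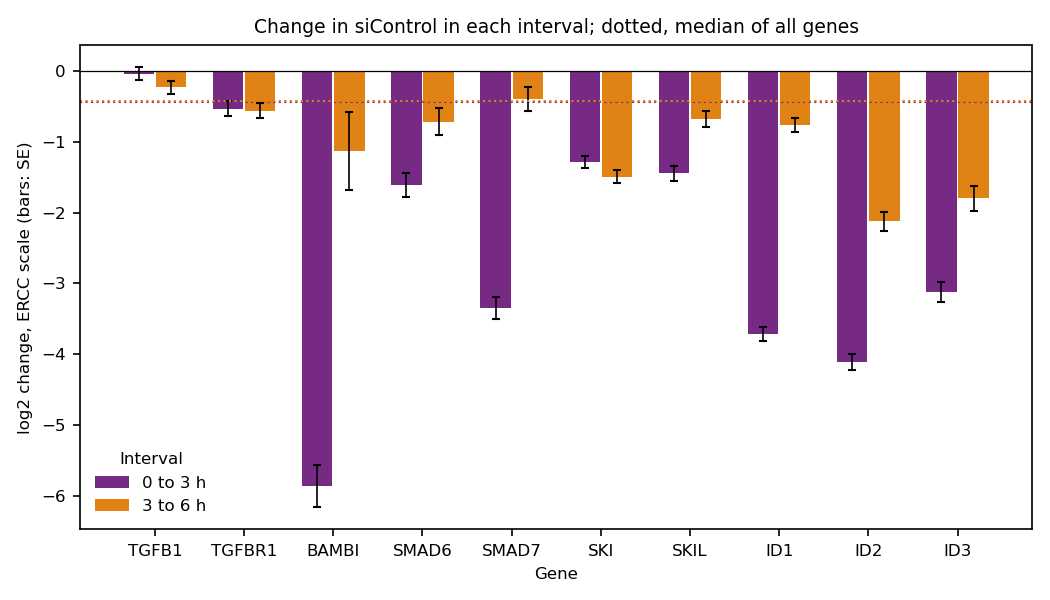
Bars give the log2 change of each gene in siControl from 0 to 3 h and from 3 to 6 h on the ERCC scale, with the SE of the fit as error bars, and dotted lines mark the medians of all tested genes (-0.44 and -0.42). The first bar is much the longer one for BAMBI, SMAD7 and the 3 ID genes, while both bars of SKI and of TGFBR1 are of similar length.

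The time course was made to ask whether the IGF2BP proteins change mRNA half-lifetime. The order of the 10 genes was much the same in every condition, with BAMBI, ID2 and ID1 the shortest and TGFBR1 and TGFB1 the longest. Slopes fell for 9 of 10 in each knockdown, TGFB1 being the exception, where 69.1% of all genes fell in siIGF2BP1, 71.3% in siIGF2BP2 and 67.2% in siIGF2BP3. TGFB1 had no half-lifetime in siIGF2BP3, because its estimated decay rate was not above 0.

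Half-lifetimes were longer than in siControl for 9 of 10 genes in siIGF2BP1, 9 of 10 in siIGF2BP2 and 9 of 9 in siIGF2BP3, where 79.7%, 62.6% and 83.1% of all tested genes were longer. All 3 comparisons share the siControl libraries. SMAD6 was the exception in siIGF2BP1 (1.86 against 2.16 h) and in siIGF2BP2 (2.14 h), and its same-numbered libraries overlapped with siControl in siIGF2BP2. The median ratio to siControl was 1.05, 1.11 and 1.09 in the 10 genes and 1.17, 1.05 and 1.19 in all genes.

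Half-lifetimes of the ID genes in the knockdowns are given as values, since no slope difference of theirs was called and the knockdowns were not tested against each other. ID3 had a half-lifetime of 1.30 h in siIGF2BP2, both from the means and from the same-numbered libraries of either number. In siControl the same-numbered libraries gave 1.06 and 1.09 h. The half-lifetime of ID3 was 1.12 h in siIGF2BP1 and 1.15 h in siIGF2BP3. ID2 went from 0.830 h in siControl to 0.861, 0.897 and 0.908 h in siIGF2BP1, siIGF2BP2 and siIGF2BP3. ID1 went from 1.01 h to 1.04, 1.12 and 1.07 h. In minutes these shifts were small: ID1 was at 60.4 min in siControl and 67.1 min in siIGF2BP2.

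Among the others, SKI was at 2.25 h in siControl and at 2.40, 2.58 and 2.60 h in siIGF2BP1, siIGF2BP2 and siIGF2BP3, and no same-numbered estimate of a knockdown fell to the siControl range of 2.22 to 2.28 h. TGFBR1 was at 5.59 h in siControl and at 9.38 h in siIGF2BP1, where the same-numbered estimates of 11.1 and 8.04 h were far apart. It was at 6.26 h in siIGF2BP2 and at 6.10 h in siIGF2BP3. SMAD7 stayed between 1.15 and 1.23 h, SKIL between 2.39 and 2.68 h and BAMBI between 0.632 and 0.703 h. The ranges of the same-numbered estimates of BAMBI and SKIL overlapped siControl in every knockdown.

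**Figure D3:**
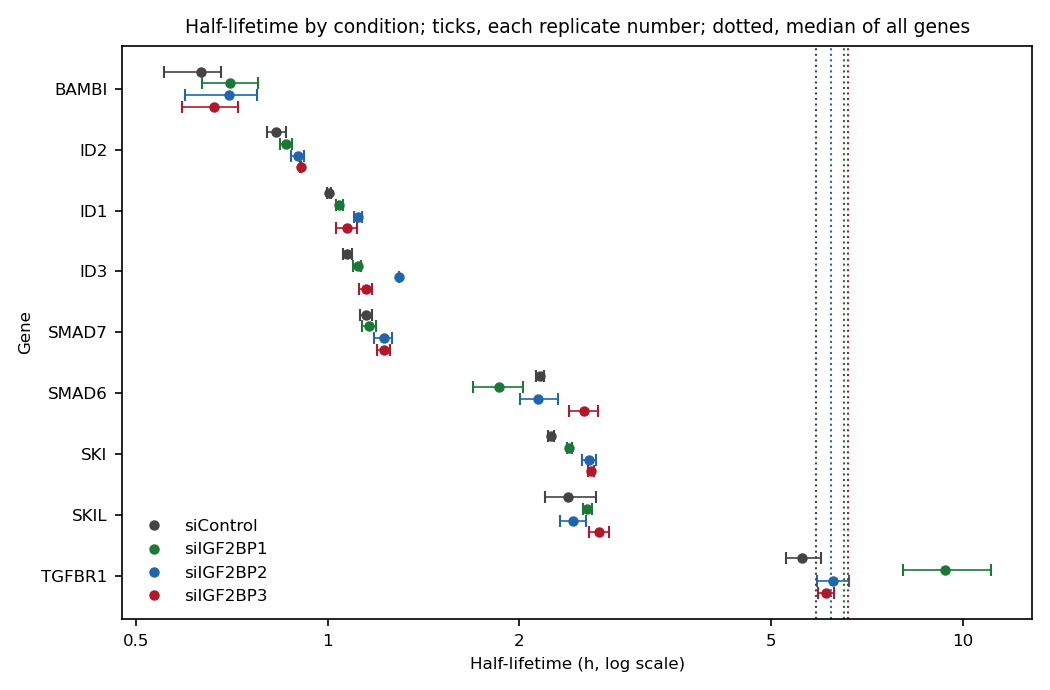
Half-lifetime in hours on a log axis for 9 genes (TGFB1 is left out, as its value was poorly fixed) in 4 conditions. Points come from the means of both libraries, ticks from the libraries of 1 replicate number alone, and dotted lines mark the medians of all genes (5.88 to 6.61 h), which only TGFBR1 approaches or passes.

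No difference in slope passed the test in any of the 10 genes. With edgeR, 0 of 10 were called in siIGF2BP1, siIGF2BP2 and siIGF2BP3, where 0.0152%, 0% and 0.0228% of all genes were called. Before adjustment 1 of the 10 in each had p under 0.05 in edgeR. Over all 13136 tested genes, 1436, 896 and 2113 did in siIGF2BP1, siIGF2BP2 and siIGF2BP3. The members were TGFBR1 in siIGF2BP1 (0.32, SE 0.15, adjusted p = 0.457), SKI in siIGF2BP2 (0.40, SE 0.12, adjusted p = 0.643) and SKI in siIGF2BP3 (0.33, SE 0.12, adjusted p = 0.277). DESeq2 also called 0 of 10 in each. A positive value means slower loss in the knockdown. The median differences of the 10 genes, 0.12, 0.24 and 0.23, stood beside 0.19, 0.17 and 0.22 for all genes, so that the shift of the group was close to that of the transcriptome.

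A straight line describes the curved course of the ID genes poorly, and the SE of its slope difference was 0.88 for ID1 in siIGF2BP2 against 0.13 for the change between 0 and 6 h alone. Taken from 0 and 6 h alone, the loss in siIGF2BP2 was smaller for ID1 by 0.50 (SE 0.13, edgeR adjusted p = 0.0327) and for ID3 by 0.86 (SE 0.21, adjusted p = 0.0181), and these 2 of 10 genes then passed the test, where 0.548% of all genes did. The levels behind this were 14.7 and 16.3 ERCC-scaled CPM of ID1 at 6 h in siIGF2BP2 and 10.6 and 8.10 in siControl. ID3 was at 2.67 and 2.57 in siIGF2BP2 and at 1.17 and 1.06 in siControl. Neither pair overlapped. No other member passed in any knockdown by this measure. It was run with edgeR and ERCC scaling only: other scalings, DESeq2 and fits without single libraries were not tried on it. In siIGF2BP2 the median difference in the 0 to 6 h change over all genes was 0.17, with 70 genes called for a smaller loss and 2 for a larger one.

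The first 3 h, in which the ID genes and SMAD7 lose most of their mRNA, were also compared. No member was called with edgeR (0 of 10 in each knockdown, with 0.0609%, 0.0457% and 0.0761% of all genes called in siIGF2BP1, siIGF2BP2 and siIGF2BP3). DESeq2 was not run on this interval. Before adjustment, 0, 4 and 1 of 10 had an edgeR p under 0.05, where 452, 299 and 519 of all 13136 tested genes did. The 4 in siIGF2BP2 were ID1 (0.34, SE 0.13), ID2 (0.43, SE 0.14), ID3 (0.53, SE 0.18) and BAMBI (1.09, SE 0.45), each with an edgeR adjusted p of 1. In siIGF2BP3 it was ID2, lost less by 0.54 (SE 0.15, edgeR adjusted p = 0.138). At 3 h ID2 stood at 11.1 and 14.0 in siIGF2BP3 and at 6.73 and 7.37 in siControl. That value was called without siControl 0 h replicate 2 (0.63, adjusted p = 0.0163) and without siIGF2BP3 3 h replicate 1 (0.72, adjusted p = 0.0312).

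Levels before the drug were compared next, in TMM-scaled counts. In siIGF2BP1, 0 of 10 genes were called higher and 0 lower with edgeR, where 9.43% of all tested genes were higher and 6.5% lower. Of the 10, only SMAD7 had an unadjusted edgeR p under 0.05 there (0.22, SE 0.098, adjusted p = 0.134), and DESeq2 called none. Over all 13136 tested genes, 3499 had an unadjusted edgeR p under 0.05. In siIGF2BP2, TGFBR1 and ID2 were called higher (2 of 10) and none lower, where 6.65% of all genes were higher and 5.47% lower. In siIGF2BP3, TGFBR1 was called higher (1 of 10) and none lower, where 4.93% were higher and 4.47% lower. DESeq2 also called 0 of 10 lower in both. With edgeR, 6 and 3 of 10 had an unadjusted p under 0.05 in siIGF2BP2 and siIGF2BP3. Over all 13136 tested genes, 3032 and 2720 did.

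TGFBR1 was at 29.6 and 30.0 CPM at 0 h in siControl, at 30.7 and 30.1 in siIGF2BP1, at 35.1 and 37.2 in siIGF2BP2 and at 35.1 and 34.4 in siIGF2BP3. The libraries of siIGF2BP2 and siIGF2BP3 lay above all 4 others. The log2 difference was 0.28 in siIGF2BP2 (SE 0.064), with an edgeR adjusted p of 0.00165. For siIGF2BP3 it was 0.23 (SE 0.065, edgeR adjusted p = 0.019). In siIGF2BP1 it was 0.05 (SE 0.065). The call in siIGF2BP3 was lost without any 1 of its 4 libraries (edgeR adjusted p 0.0783 to 0.131), and that in siIGF2BP2 without siIGF2BP2 replicate 2 (adjusted p = 0.0542). Whether the receptor differs between knockdowns was not tested.

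ID2 was at 108 and 109 CPM in siControl, 118 and 115 in siIGF2BP1, 129 and 131 in siIGF2BP2 and 122 and 124 in siIGF2BP3. Every knockdown library lay above both siControl libraries. The difference was 0.27 in siIGF2BP2 (SE 0.063, edgeR adjusted p = 0.00238), and in siIGF2BP3 it was 0.18 (SE 0.063) with an adjusted p of 0.057, which DESeq2 put at 0.0305. ID3 was at 28.5 and 31.5 CPM in siControl and 36.4 and 36.5 in siIGF2BP2, a difference of 0.29 (SE 0.10, edgeR adjusted p = 0.0622) that was called at 0.37 with ERCC scaling (adjusted p = 0.0337). ID1, at 184 and 185 CPM in siControl, was at 204 in both siIGF2BP2 libraries (0.15, SE 0.058, adjusted p = 0.0904).

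The remaining members gave no call at 0 h. TGFB1 was at 92.1 and 98.4 CPM in siControl and ranged from 83.2 to 105.7 in the knockdowns. BAMBI, at 10.1 and 10.4, ranged from 6.61 to 11.7, with its lowest library in siIGF2BP1 (-0.38, SE 0.22, edgeR adjusted p = 0.278). SMAD6 was at 9.42 and 10.2 in siControl and between 9.15 and 11.7 in the knockdowns. SMAD7, at 24.1 and 25.1, was at 28.6 and 27.9 in siIGF2BP1. SKI and SKIL stayed within 0.11 log2 units of siControl in each knockdown.

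**Figure D4:**
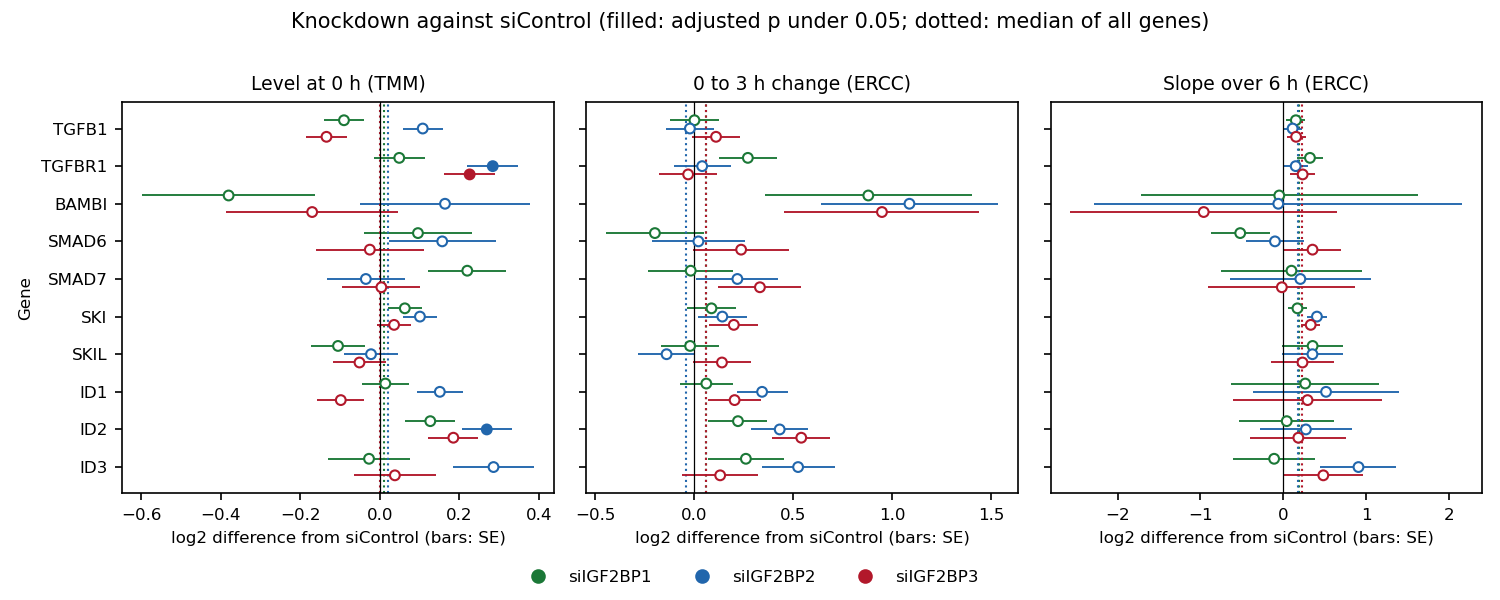
Log2 differences of each knockdown from siControl in the level at 0 h, in the 0 to 3 h change and in the slope over 6 h, with SE bars and a separate x scale for each panel. Filled points have an edgeR adjusted p under 0.05, namely TGFBR1 in siIGF2BP2 and siIGF2BP3 and ID2 in siIGF2BP2 at 0 h, and dotted lines mark the medians of all genes.

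Beyond the 10 members, the pathway was described from a list of 94 ligands, receptors, SMADs, regulators and targets, of which 68 passed the filter. At 0 h, 5 were higher and 10 lower in siIGF2BP1, 9 higher and 5 lower in siIGF2BP2, and 3 higher and 11 lower in siIGF2BP3 (edgeR adjusted p under 0.05). Over all tested genes, higher and lower shares were 9.43% and 6.5%, 6.65% and 5.47%, and 4.93% and 4.47% in the same order. Their median differences were 0.01, 0.03 and -0.04, beside 0.01, 0.02 and 0.00 for all genes. None of the 6 receptor and common SMADs was called in any knockdown. Of 11 receptors tested, 3 were lower in each knockdown and 1, ENG, was higher in siIGF2BP2.

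In siIGF2BP1 the falls included TGFBR3, the betaglycan coreceptor, by 1.31 (SE 0.044), and CCN2, a matricellular growth factor, by 0.58 (SE 0.060). The largest rises were in INHBE, an inhibin beta chain made by liver, by 0.87 (SE 0.10), PPM1A, a SMAD phosphatase, by 0.28 (SE 0.061), and TGFBI, a matrix protein, by 0.28 (SE 0.030). CCN2 and TGFBI are both known as TGF-beta targets, and they moved in opposite directions. Of 12 listed targets tested, 1 was called higher and 3 lower in siIGF2BP1. The counts were 2 and 1 in siIGF2BP2 and 1 and 4 in siIGF2BP3.

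In siIGF2BP2 the largest rises were in GDF11, an activin-like ligand, by 0.68 (SE 0.17), ENG, the endoglin coreceptor, by 0.61 (SE 0.14), and HAMP, a BMP target like the ID genes, by 0.58 (SE 0.15). The largest falls were in CDKN2B, a cell cycle inhibitor, by 0.66 (SE 0.19), TGFBR3 by 0.44 (SE 0.042) and TGFBR2, the type II partner of TGFBR1, by 0.35 (SE 0.040). TGFBR1 and TGFBR2, which form 1 receptor complex, thus went opposite ways in siIGF2BP2.

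In siIGF2BP3 the 3 rises were in HAMP, by 0.45 (SE 0.15), INHBE, by 0.39 (SE 0.11), and PPM1A, by 0.24 (SE 0.061). The falls included CDKN2B, by 0.94 (SE 0.20), and CDKN1A, a further cell cycle inhibitor, by 0.44 (SE 0.078). The edgeR adjusted p of every gene named from this list was below 0.05.

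After the drug, the slope in siControl fell for 56 of 68 and rose for 0, close to the 80.3% of all genes that fell, with a median of -1.50 over 6 h. In either direction, 58 of 68 had an unadjusted edgeR p under 0.05, where 10693 of all 13136 tested genes did. The median half-lifetime of 64 of the 68 was 3.55 h, against 1.66 h for the 10 genes and 5.88 h for all. By role, targets fell most, with 11 of 12 called and a median of -4.19, followed by SMADs with 6 of 6 and -1.94 and receptors with 11 of 11 and -1.69. Ligands and extracellular regulators fell least, with 4 of 9 and 5 of 10 called and medians of -0.82 and -0.59. For the difference in slope from siControl edgeR called 0 of 68 in each knockdown, and 4, 6 and 8 had an unadjusted p under 0.05 in siIGF2BP1, siIGF2BP2 and siIGF2BP3. Over all 13136 tested genes, 1436, 896 and 2113 did.

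The 2 genes nearest in course to each member were then looked up. Likeness was measured as the root mean square difference in log2 ERCC-scaled level, relative to siControl at 0 h, over the other 11 groups, among 9745 genes with a mean of at least 5 CPM. The nearest genes to ID1 were FOXO1 (0.20) and FBXO34 (0.21), and to ID2 they were RHOB (0.32) and IRF2BPL (0.46). For ID3, CEBPB (0.34) was among the 2 nearest, and SMAD7 was nearest to PPP1R10 (0.11) and ETV3 (0.14). Among these genes BAMBI had no close match, with TRIB1 at 0.89 and CITED2 at 1.04. At 6 h BAMBI rested on few reads, such as 8 and 5 in siControl and 1 and 1 in siIGF2BP3. Its own mean lay below 5 CPM, so genes with as low a mean were not candidates. Whether these limits account for its distance was not tested.

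SMAD6 was nearest to RSF1 (0.15) and ARID1B (0.16), SKI to SOX12 and UBE2O (both 0.09), and SKIL to TERF2 (0.07) and TRIM52 (0.08). TGFBR1 was nearest to SPIN1 and DHX37 (both 0.07), and TGFB1 to FRAS1 and ACTA2 (both 0.06). All these values compare the same 24 libraries and share their depth and spike-in scale.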

How the data were processed

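The deposited values are raw read counts per gene, and each table also holds 92 ERCC rows and 5 summary rows. Per the labels and the submitters' processing notes, the authors added ERCC RNA in proportion to total RNA after purification, selected polyadenylated RNA, prepared strand-specific libraries for single-end reads of 100 bases, trimmed them with Trimmomatic 0.39, aligned them to hg38 with HISAT2 2.1.0 and counted them with HTSeq. Spike-in added per amount of RNA does not correct for cell number or RNA recovery. Multi-mapping settings were not stated in the sources used here. Summary rows (13.55% to 17.06% of a library) and 45 rows for the Y chromosome's pseudoautosomal copies were dropped. Depth, given with the results, limits low genes most, and errors from counts cover counting only.

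The count tests used edgeR 4.0.16 in R 4.3.3 (quasi-likelihood F test, two-sided) on the 13136 genes that reached 1 CPM in 2 or more of 24 libraries, with Benjamini-Hochberg adjustment over all of them and a threshold of 0.05. Levels at 0 h were contrasts among 12 group means with TMM scaling. Changes after the drug used the ERCC read total as scale, either with 12 group means or with a slope on time per condition, given as log2 change over 6 h. Each SE was calculated back from the estimate and its F value. C being the ERCC-scaled mean of both libraries, the decay rate averaged 2 terms, -ln(C6/C0)/6 and -ln(C3/C0)/3. The authors' conversion of spike-ins to amounts by linear fitting was replaced by the ERCC total. Levels per kb used the merged length of all annotated exons of a gene in GENCODE release 44. This release is later than the one the authors counted on. Of the identifiers, 58207 matched a symbol (469 did not).

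The members and lists were chosen with earlier results of these data known. Named are the 10 members, the 3 siRNA targets, the 3 largest called rises and falls of the pathway list at 0 h in each knockdown, list genes called for a slope difference (there were none), and the 2 genes nearest in course to each member. Some genes that this rule names are not reported here. Each UTR stretch holds the most pentamers that fit into 30 bases. Replicate libraries differed by more than sampling noise in every group (chi-square per degree of freedom 3.17 to 7.83). Before use, the test of the 0 h level and that of the slope difference were tried on simulated data, for siIGF2BP1 and with ERCC scaling. The other tests were not tried in this way. Alternatives were DESeq2 1.42.0, other scalings, a filter of at least 1 read in 2 libraries, fits of only the libraries or conditions compared, 0 h to 6 h alone, a replicate block, and fits without each library.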

Additional observations from a re-analysis of the deposited data

How the results depend on the processing

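Called decay of 9 members did not depend on the spike-in scale in direction, except that SMAD7 from 3 to 6 h went to 0.01 with TMM. TGFB1 reversed: with TMM and library-size scaling it was 0.42 and 0.22 from 0 to 3 h and 0.18 and 0.06 from 3 to 6 h in siControl, and its slopes in siControl, siIGF2BP1, siIGF2BP2 and siIGF2BP3 were 0.60, 0.56, 0.52 and 0.53 with TMM and 0.28, 0.26, 0.24 and 0.24 with library size. TMM lowered the members called for a fall from 3 to 6 h in siControl from 9 to 5, and all genes so called from 8522 to 3280. It also called 2 members for a lower change in the later interval, where ERCC scaling called 0: SKI, lost faster later, and TGFB1, which rose less later. Over all genes that direction had 216 calls with ERCC, 1306 with library-size and 2388 with TMM scaling. Half-lifetimes with TMM were 1.18 h for ID1, 3.36 h for SKI and 32.6 h for TGFBR1 in siControl. The cause was not tested.

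For levels at 0 h, a fit of only the libraries compared called 2 members higher and 1 lower in siIGF2BP1, 4 higher in siIGF2BP2, and 2 higher and 2 lower in siIGF2BP3. Over all genes the same fit called 1419 higher and 1297 lower, 1151 and 1232, and 861 and 839. DESeq2 called 2 members higher in siIGF2BP3, with 761 over all genes, and ERCC scaling 0, with 388 over all genes. Library-size scaling called 1 member (ID2) for the 0 to 3 h difference in siIGF2BP2, with 23 over all genes. Using 0 h and 6 h libraries alone called 2 members for the slope difference in siIGF2BP2. Without single libraries, the count of members higher ranged from 0 to 1 in siIGF2BP3 and from 1 to 2 in siIGF2BP2, and that of the 0 to 3 h difference in siIGF2BP3 from 0 to 1. Over all genes, the slope difference called 2, 0 and 3 in siIGF2BP1, siIGF2BP2 and siIGF2BP3, 4, 6 and 27 with DESeq2, 86, 72 and 195 from 0 h and 6 h alone, and 540 in siIGF2BP3 without siControl 0 h replicate 2. With ERCC in place of TMM scaling, genes higher and lower at 0 h went from 1239 and 854 to 253 and 396 in siIGF2BP1, from 874 and 719 to 563 and 169 in siIGF2BP2 and from 647 and 587 to 388 and 83 in siIGF2BP3. With TMM in place of ERCC, genes with a falling slope went from 10551 to 5085 in siControl. Of 1910 alternative values of single members, 123 that were not called changed sign.

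Same-numbered libraries showed little common deviation in most of 66 pairs of groups (median correlation 0.01, 7 above 0.1, highest 0.34). The main tests therefore did not pair the samples by number. Whether some groups shared a batch by number was not tested. With the replicate block, the members called remained at 2 higher in siIGF2BP2 and 1 in siIGF2BP3 at 0 h and at 0 for every slope difference.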
